A study of Drosophila melanogaster with 3 samples.

Results

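Divergent promoter regions are places where the promoters of 2 genes stand back to back, so that transcription leaves in opposite directions from the same short stretch of DNA. They were examined here in whole Drosophila melanogaster embryos, in a chromatin immunoprecipitation map of Hsf, the heat shock transcription factor. A region was a member when its summit, the position of highest signal, lay within 500 bp of annotated start sites of 2 different protein-coding genes on opposite strands. The start site on the minus strand had to lie at the lower coordinate and at most 1000 bp from the start site on the plus strand. This gave 2125 of the 30000 pooled candidate regions (7.08%), at 1679 gene pairs with 3341 genes. All samples formed 1 group with 3 biological replicates. The embryos were 0 to 24 h old and of mixed sex. They came from a single transgenic fly line in which Hsf carries a C-terminal GFP and is stably expressed. Chromatin was sonicated to 200 to 800 bp and precipitated with an antibody against GFP. Every sample carries the tagged protein, the labels name no heat treatment, and the sources used here do not say which promoter drives the transgene. Whole embryos of this age range mix many cell types and stages. The candidate regions are the peaks and background regions that the authors passed to IDR, a procedure that keeps regions whose rank repeats across replicates. Signal below is the authors' own peak score, pooled over replicates except where one is given by number. The 5756 regions of the authors' optimal list, those that passed IDR, are the strongest pooled regions, with signals of at least 97.0. Membership of that list is therefore a threshold on the same signal. The number of reads behind a region is unknown.

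Hsf is held inactive in unstressed cells by chaperones, and on heat shock it forms trimers that bind the heat shock element, inverted repeats of a short unit, upstream of chaperone genes. Head-to-head gene pairs are common in the compact Drosophila genome, and many of their genes are expressed in nearly all cells. Promoters of that kind are known for sequence motifs bound by DREF, by M1BP and by the boundary protein BEAF-32, while GAGA factor and the TATA box are better known from regulated promoters.

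The DNA between the start sites is shown for 5 pairs, to let the promoter sequence of the strongest members be read beside their signal. The first 4 are among the strongest members with 20 to 300 bp between the start sites and no exon in between, and the last is a strong member under the same conditions with a heat shock element there. The minus-strand gene is named first. Sequences are from the RefSeq genome of release 6 (dm6), plus strand, 5′ to 3′. They span chr3L:22878985-22879088 (Chro/Ssl1), chr3R:15229409-15229664 (Art3/mRpS10), chr3L:5139396-5139618 (Tcs5/CHMP2B), chr3L:9426759-9427009 (Atat/Shc) and chr2L:8376798-8377034 (CG13390/CG17294). Capitals mark matches to the 8 motifs searched, which are spelled out with the motif results, and lower case is the rest.
Chro/Ssl1: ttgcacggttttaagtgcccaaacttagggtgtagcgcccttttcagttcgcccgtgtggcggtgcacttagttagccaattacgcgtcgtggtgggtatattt
Art3/mRpS10: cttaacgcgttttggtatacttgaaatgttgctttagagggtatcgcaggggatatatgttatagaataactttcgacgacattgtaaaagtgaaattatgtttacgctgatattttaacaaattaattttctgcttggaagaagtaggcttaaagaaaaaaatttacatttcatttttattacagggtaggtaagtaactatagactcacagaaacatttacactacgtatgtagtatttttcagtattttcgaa
Tcs5/CHMP2B: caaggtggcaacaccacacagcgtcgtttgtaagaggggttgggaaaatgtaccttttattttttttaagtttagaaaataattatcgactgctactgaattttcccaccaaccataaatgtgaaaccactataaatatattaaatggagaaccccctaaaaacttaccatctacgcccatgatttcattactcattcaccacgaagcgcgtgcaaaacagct
Atat/Shc: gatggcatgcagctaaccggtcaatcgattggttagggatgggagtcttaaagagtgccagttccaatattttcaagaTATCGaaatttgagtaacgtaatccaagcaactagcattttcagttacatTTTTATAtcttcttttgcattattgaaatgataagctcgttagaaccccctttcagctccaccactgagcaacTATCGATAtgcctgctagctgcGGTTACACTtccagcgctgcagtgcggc
CG13390/CG17294: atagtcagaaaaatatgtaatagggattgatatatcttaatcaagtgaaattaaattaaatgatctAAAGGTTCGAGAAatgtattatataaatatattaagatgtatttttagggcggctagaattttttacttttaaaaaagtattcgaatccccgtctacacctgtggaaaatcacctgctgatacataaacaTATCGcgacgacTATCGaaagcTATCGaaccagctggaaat
No searched motif matched between the start sites of Chro/Ssl1, Art3/mRpS10 and Tcs5/CHMP2B. The DNA between Atat and Shc held a DREF and an M1BP match near Shc, a TATA box match and 3 BEAF-32 units, 2 of which overlap within the DREF match. That between CG13390 and CG17294 held 1 heat shock element and 3 BEAF-32 units.

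Chro encodes a chromodomain protein and Ssl1 a subunit of the general transcription factor TFIIH. Their region (chr3L:22878690-22879126) had a pooled signal of 2480.1, rank 4 of all candidates, and signals of 843, 960.4 and 683 in replicates 1, 2 and 3. It ranked 7, 4 and 4 in those lists. Its summit lay in a 5' UTR, 91 bp inside Chro and outside the sequence shown. Art3, a protein arginine methyltransferase gene, faces mRpS10, a mitochondrial ribosomal protein gene. That region (chr3R:15229319-15229762) had a signal of 2392 and ranks of 5, 8 and 6, with its summit at base 114 of the intergenic sequence. Tcs5, a tRNA modification gene, faces CHMP2B, a gene of the ESCRT-III membrane scission machinery. The summit there (chr3L:5139298-5139705, signal 2334) lay at base 99, and the region ranked 9, 3 and 9 in the replicates. Atat, a tubulin acetyltransferase gene, and Shc, an adaptor gene of receptor tyrosine kinase signalling, shared a region of signal 1747 (chr3L:9426680-9427103) with ranks of 50, 11 and 22 and the summit at base 125. The region of CG13390 and CG17294 (chr2L:8376710-8377060) had a signal of 939 and ranks of 74, 118 and 115, with the summit at base 98, a short distance from the heat shock element at base 67. All 5 regions were in the optimal list, as were 19.2% of all candidates, and each stayed within the strongest 118 of every replicate.

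The other 16 of the 20 strongest members included genes of mitochondria, peroxisomes, signalling and protein turnover. Mitochondrial genes as a whole were not counted over all members, so no excess of them is read from these names. mRpS23, another mitochondrial ribosomal protein gene, shared a region of signal 2039 with the Arf GTPase activating protein gene CenG1A (ranks 8, 16 and 20). The peroxin gene Pex11ab and CG8320 shared one of 1919 (ranks 25, 9 and 19), and the F-box gene Fbw5 and CG9147 one of 1704 (ranks 22, 27 and 17). Mitochondrial genes also stood at Mkk4/SLIRP2 (1569), mRpL23/CG9004 (1447), Lon/PIG-F (1369), Coq4/CG32176 (1209.8) and Hrd3/PTPMT1 (1142), where SLIRP2 is an RNA-binding protein gene of mitochondria, Lon a protease gene, Coq4 a coenzyme Q gene and PTPMT1 a phosphatase gene. The remaining pairs were Pdrg1/Pal1 (1676), tank/CG12194 (1381), CG5611/Mtl (1371), Mnat9/CG1792 (1302), CG5757/CG5098 (1207), Bdp1/CG6565 (1196), Reps/l(2)gd1 (1196) and CG8372/CG8360 (1141). Bdp1 is a subunit of the RNA polymerase III factor TFIIIB. In 14 of the 20 regions the summit lay between the start sites, which were 33 to 505 bp apart (median 254). The lowest rank among the 20 by replicate was 115, 61 and 98. None of the 20 held a heat shock element within 100 bp of the summit. The element stood at 5.18% of all candidates and 5.41% of optimal members, so 20 regions are too few to read this as a lack.

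Divergent promoter regions carried more Hsf-GFP signal than promoter regions of 1 gene. Their median signal was 101.1 (quartiles 55.3 and 199), against 51.4 (33.9 and 99.3) in the 6692 candidate regions with start sites of exactly 1 coding gene within 500 bp, here called single-gene regions. It was 37.4 in the 20993 regions with no coding start site within 500 bp and 41.4 over all candidates. The ratio of the divergent to the single-gene median was 1.97 in the pooled list and 1.59, 2.03 and 1.81 in the lists of replicates 1, 2 and 3 (mean 1.81 ± 0.222, SD, n = 3). Regions with coding start sites of 2 or more genes on 1 strand (162 regions) had a median signal of 53.2, close to the single-gene value. The 28 regions at start sites on both strands that did not stand in divergent order had a median of 75.1.

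**Figure D1:**
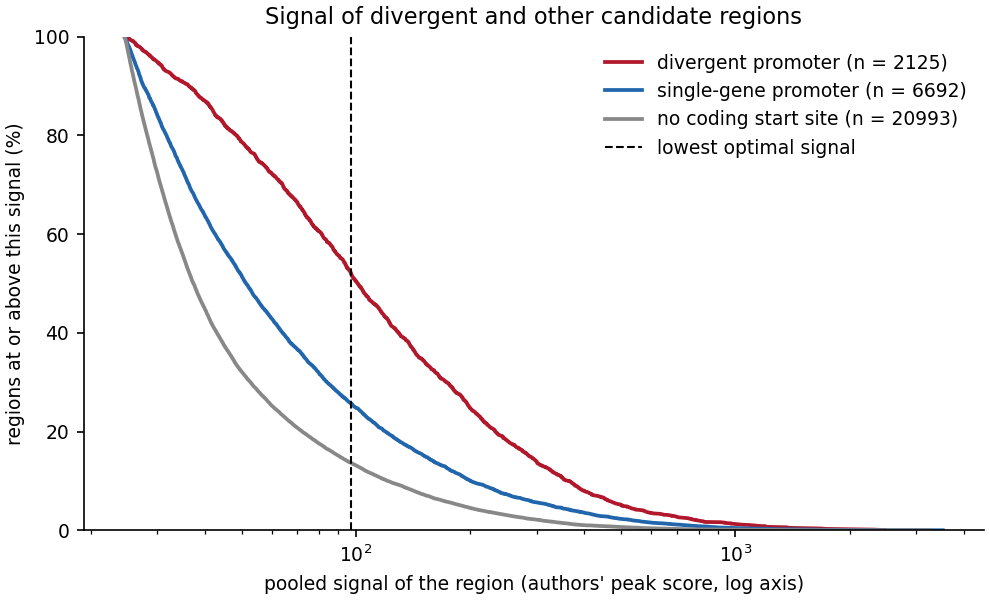
Percentage of regions (vertical axis) at or above each pooled signal (horizontal log axis, the authors' peak score) for divergent promoter regions, single-gene promoter regions and regions with no coding start site. At the lowest optimal signal of 97.0 (dashed line) the divergent curve stands at 52.2%, against 25.7% for single-gene regions and 13.7% for regions with no coding start site.

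Of the 2125 members, 1109 were in the optimal list, which is 52.2% (95% Wilson interval 50.1 to 54.3), where 19.2% of all candidates were. Of the single-gene regions 1723 were, or 25.7% (24.7 to 26.8). The difference was 26.4 percentage points. Each replicate was then taken alone, with its own members by the same rule and its 5756 strongest regions counted as called, which is 19.2%, 20.4% and 19.2% of the regions in replicates 1, 2 and 3. Called were 45.9%, 60% and 58.3% of the divergent regions (2235, 1809 and 1946 members), against 25%, 32.3% and 28.7% of the single-gene regions. The differences of 20.9, 27.8 and 29.6 points averaged 26.1 ± 4.58 (SD, n = 3), and the exact sign-flip permutation test gave a two-sided p of 0.25, the smallest that 3 replicates allow. The groups did not overlap: the lowest divergent share was above the highest single-gene share. Of the single-gene regions, 190 had the start site of a noncoding RNA gene in divergent order within the window, and 34.2% of these were optimal (27.8 to 41.2), against 25.5% of the 6502 others, a split added after seeing the data. These intervals cover counting error over regions only.

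**Figure D2:**
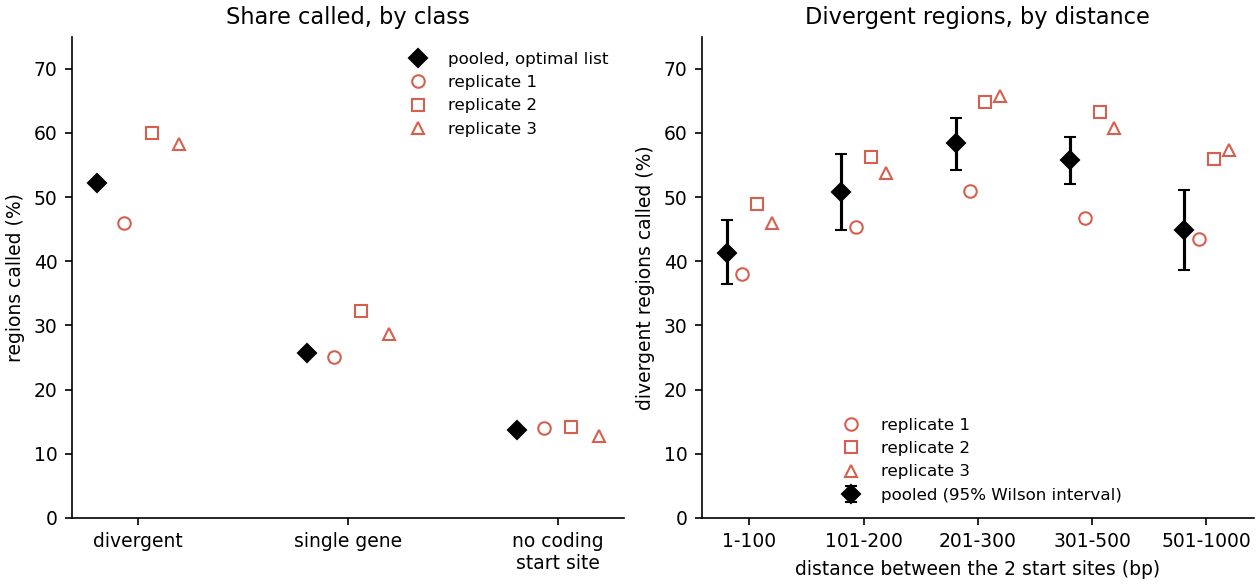
Left, percentage of regions called in the pooled list (diamonds, optimal list) and among the 5756 strongest of each replicate (open symbols) for divergent, single-gene and other regions. Right, the same for divergent regions by the distance between the start sites, with 95% Wilson intervals on the pooled values, where the 200 to 300 bp class is highest at 58.4% and the 1 to 100 bp class lowest at 41.3%.

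Members became more frequent with rank. They made up 31.0% of the 100 strongest candidates (31 regions), 25.8% of the next 900 and 17.8% of the 4756 after those, down to the end of the optimal list. Below it they made up 10.3% of the next 4244, 4.06% of the next 10000 and 1.73% of the last 10000. Single-gene regions made up 34.0% of the 100 strongest and 15.6% of the last 10000. Members often shared a pair: 1243 of the 1679 pairs held 1 region, 427 held 2 and 9 held more, with 4 at most. Where a pair held 2, their summits lay a median of 206 bp apart and the stronger had a median of 2.30 times the signal of the weaker. Members had a median width of 416 bp, so 2 regions of a pair can overlap and are not independent. Each is still counted as a member of its own in the shares and intervals given here. In 102 of these 427 pairs both regions were optimal, in 202 only the stronger and in 123 neither. Counted by pair, 1007 of 1679 (60%) held at least 1 optimal region. Single-gene regions taken as 1 region a gene were optimal in 32.5% of 4703. Further coding genes stood within the window at 108 members, and 2017 members had exactly 2.

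The share of optimal regions went with the distance between the start sites, which had a median of 281 bp (quartiles 156 and 398). In distance classes that each include their upper bound, it was 41.3% at 1 to 100 bp (358 regions, 36.4 to 46.5), 50.8% at 100 to 200 bp (264), 58.4% at 200 to 300 bp (563, 54.3 to 62.4), 55.8% at 300 to 500 bp (701) and 44.8% at 500 to 1000 bp (239, 38.6 to 51.1). Median signals over these classes were 75.2, 97.4, 119, 108 and 89.3. The mean GC content around the summits fell from 41.2% at 1 to 100 bp to 34.1% at 500 to 1000 bp, and its part in the optimal share was not tested. In replicates 1, 2 and 3 the share was highest at 200 to 300 bp, at 50.9%, 64.9% and 65.8%, and lowest at 1 to 100 bp, at 38.0%, 49.0% and 45.9%. At 100 to 200 bp the replicates gave 45.4%, 56.3% and 53.8%, and at 300 to 500 bp 46.8%, 63.2% and 60.7%, so each replicate was lower in both neighbouring classes than at 200 to 300 bp. The farthest class is cut by the rule, because a summit must lie within 500 bp of both start sites. Atg6, an autophagy gene, and Pisd, a phosphatidylserine decarboxylase gene, had start sites 1 bp apart, with a signal of 61.5 (rank 9564). CG4730 and CG5039 had the same smallest distance and a signal of 57.7 (rank 10270), and this tie was named after its values were seen. Mkrn1, a ubiquitin ligase gene, and ppk5, an ion channel gene, stood 947 bp apart, with a signal of 40.9 (rank 15261). None of these was in the optimal list, and the region of Mkrn1 and ppk5 had no counterpart in replicates 2 and 3.

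Most summits lay between the start sites, in the DNA upstream of both genes. They did so in 1559 members (73.4%, 71.4 to 75.2) and in 67.0%, 79.2% and 70.8% of the members of replicates 1, 2 and 3. The rule sets part of this share, because a member with start sites more than 500 bp apart must have its summit between them (239 of 239). Of the 1886 members with closer start sites, 1320 (70.0%, 67.9 to 72.0) had the summit between, and 63.4%, 76.3% and 67.3% did in the replicates. The positions between the start sites made up a mean of 37.9% of those the rule admits at these members. The share was 33.2% at 1 to 100 bp and rose with the distance, as the admitted positions between do. Of the members with the summit between, 58.5% were optimal (56.0 to 60.9), against 34.8% of the 566 with the summit inside 1 of the genes (31.0 to 38.8). The replicates gave 54.9%, 64.4% and 67.3%, against 27.7%, 43.5% and 36.6%. With start sites up to 500 bp apart alone, the pooled shares were 61.0% (58.3 to 63.6) between and 34.8% inside a gene. Single-gene regions were likewise more often optimal with the summit upstream (34.8% of 4228) than downstream (10.3% of 2464). Optimal members had their summit a median of 65.5 bp from the midpoint of the start sites, other members 104 bp. By class of distance between the start sites these medians were 41.5 and 53.2 bp at 1 to 100 bp, 39.5 and 71.0 bp at 100 to 200 bp, 45.5 and 116 bp at 200 to 300 bp, and 103 and 133 bp at 300 to 500 bp. At 500 to 1000 bp the order turned, with 122 bp for optimal members and 80.2 bp for the others. Optimal members there lay nearer to a start site, at a median of 169 bp against 222 bp.

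**Figure D3:**
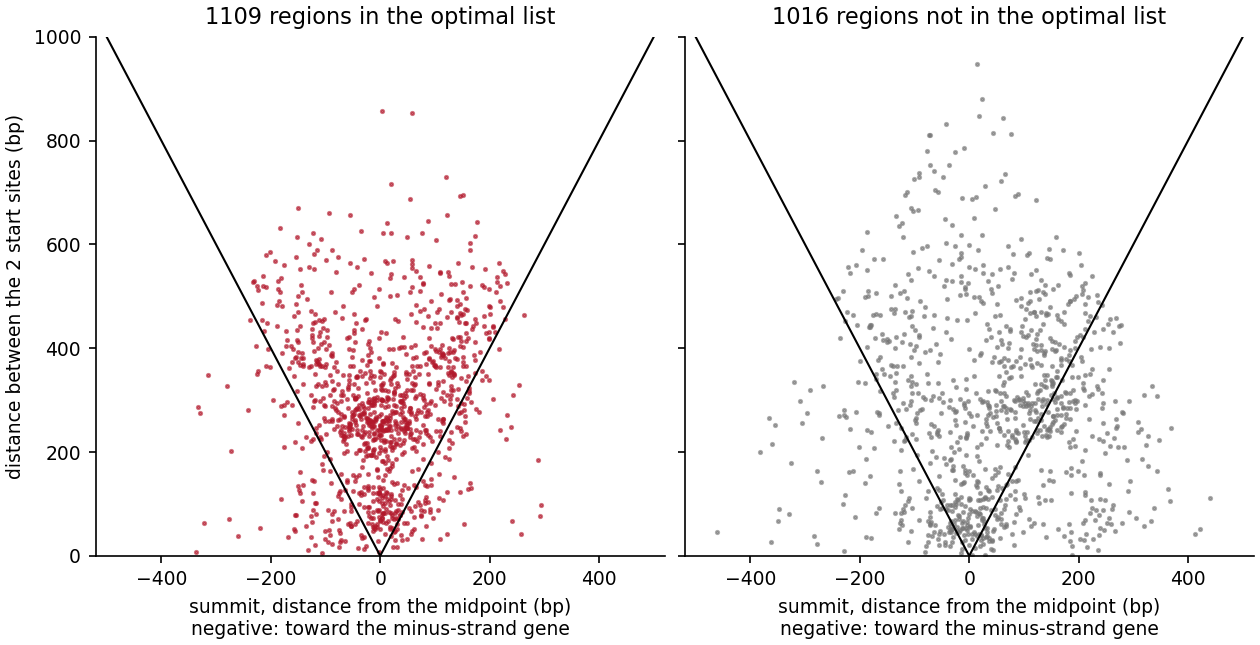
Each point is a divergent region, placed by its summit's distance from the midpoint of the start sites (horizontal, bp) and by the distance between the start sites (vertical, bp), and the lines mark the start sites. Optimal regions (left) cluster around the midpoint at distances of 200 to 300 bp, where other regions (right) lie nearer to a start site, more often that of the plus-strand gene.

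The summits were not placed evenly about the midpoint. The median member's summit lay 17.0 bp from the midpoint toward the plus-strand gene. This shift was 5 bp in optimal members and 38.2 bp in the others, and 7.50, 7.00 and 5.50 bp against 54.5, 34.5 and 40.0 bp for called and other members of replicates 1, 2 and 3. Weak single-gene regions showed a strand difference as well: those not in the optimal list had their summit a median of 4.00 bp upstream of plus-strand starts and 41.0 bp upstream of minus-strand starts. Optimal single-gene regions had 119.5 and 121 bp. Among members with the summit inside a gene, 221 were inside the minus-strand gene and 45.2% of them were optimal (38.8 to 51.8), while 345 were inside the plus-strand gene and 28.1% were (23.6 to 33.1). The plus-strand start of a pair lies at the higher coordinate, so weak members were shifted toward higher coordinates. In weak single-gene regions the difference ran the same way along the genome, with summits less far upstream of plus-strand than of minus-strand starts. The cause of these strand differences was not tested.

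By annotation, the summit was intergenic in 1293 members (60.8%), in a 5' UTR in 558 (26.3%), in an intron in 187, in coding sequence in 63, in a noncoding exon in 23 and in a 3' UTR in 1. Intergenic summits were optimal in 59.0% (56.3 to 61.7) and had a median signal of 117. Those in a 5' UTR were optimal in 40.9% (36.9 to 45) with a median of 75, and those in coding sequence in 7.94% (3.44 to 17.3) with a median of 38.0. Summits in introns were optimal in 52.9% (45.8 to 60).

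The nearest start site lay a median of 72.0 bp from divergent summits and 154 bp from single-gene summits, which follows in part from the rule, since a member has 2 start sites to be near. The 200 bp around divergent summits were poorer in G and C, at 36.9% against 41.8%. Both measures went with signal, so the classes were set side by side at matched values. At 0 to 50 bp from the nearest start site 47.2% of divergent and 22.5% of single-gene regions were optimal. The shares were 59.5% and 28.0% at 50 to 100 bp, and 59.1% and 31.8% at 100 to 200 bp. At 200 to 500 bp they were 29.1% (23.0 to 36.1) and 23.2% (21.6 to 24.8), with overlapping intervals. The differences there were 1.73, 18.8 and 8.46 points in replicates 1, 2 and 3, in the same direction but of widely varying size. Within classes of 5 points of GC content, 62.1% of 538 divergent regions and 40.0% of 1163 single-gene regions were optimal at 30 to 35% GC. At 45 to 50% GC they were 37.1% of 178 and 17.6% of 961. Weighted over GC classes the difference was 20 points, and 19.4 points over joint classes of GC content and distance, a comparison added after seeing the data.

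**Figure D4:**
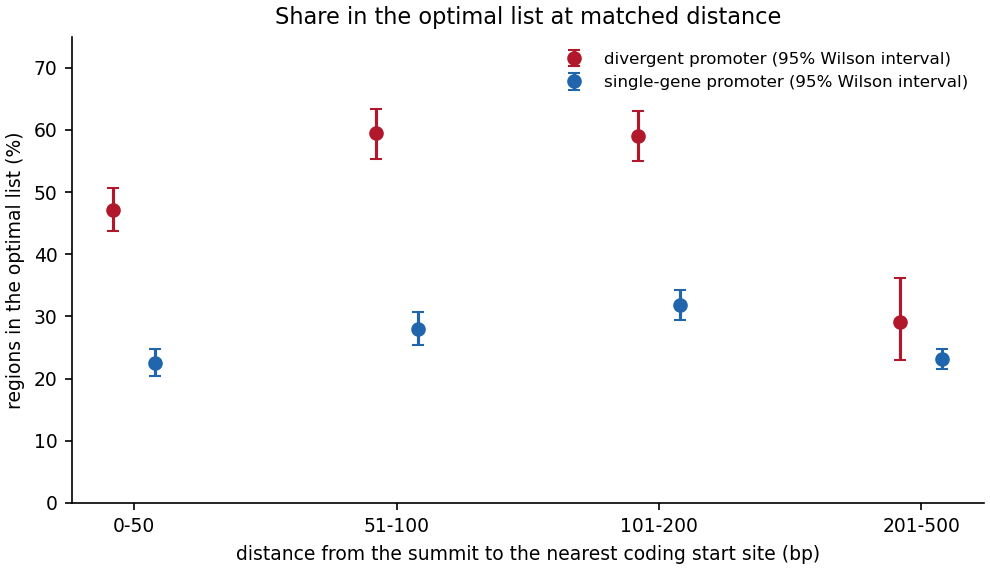
Percentage of regions in the optimal list (vertical axis) by the distance from the summit to the nearest coding start site in bp (horizontal axis), for divergent and single-gene promoter regions, with 95% Wilson intervals. Divergent regions stand higher in the classes up to 200 bp (59.1% against 31.8% at 100 to 200 bp), and the intervals overlap at 200 to 500 bp.

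Motifs were counted on both strands within 100 bp of the summit. For the heat shock element the pattern was 3 alternating units of GAA and TTC, each 2 bases apart, and 1 mismatch among the fixed bases was allowed. It matched in 5.46% of divergent regions (116 regions, 4.57 to 6.51), 5.38% of single-gene regions and 5.18% of all candidates. Replicates gave 5.23%, 5.64% and 5.19% of divergent regions, against 5.31%, 5.34% and 5.26% of single-gene regions, a difference within the spread between replicates. Members with the element were optimal in 51.7%, those without in 52.2%. The order depended on the window: these shares were 54.9% and 52.1% within 50 bp of the summit, and 48.1% and 52.8% within 250 bp.

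Motifs known from promoters of widely expressed genes, and the TATA box, were more frequent at divergent than at single-gene regions in every replicate. DREF (TATCGATA) matched in 12.8% of divergent regions (11.4 to 14.2), against 5.41% of single-gene regions (4.89 to 5.98) and 2.41% of all. M1BP (GGTCACACT, at most 1 mismatch) matched in 18.1%, against 9.44% and 5.26%. The BEAF-32 motif, taken as 2 or more copies of CGATA that do not overlap each other, matched in 24.5%, against 12.0% and 6.40%. A DREF match always holds 1 such copy. The TATA box (TATAAAA) matched in 17.0%, against 10.8% and 11.2%. The replicates gave 23.3%, 23.3% and 23.5% for BEAF-32, against 11.3%, 11.8% and 10.8% of single-gene regions. GAGA factor repeats (GAGAGAG) were rarer, at 1.36% (0.952 to 1.95) against 5.75% (5.22 to 6.34) and 3.32%, and so were CA repeats (CACACACA), at 2.16% against 5.26% and 4.52%. The E-box (CACGTG) stood at 2.92% against 2.26% and 2.44%, with overlapping intervals. It was higher at divergent than at single-gene regions in every replicate (2.86%, 2.60% and 3.08%, against 2.59%, 1.75% and 2.46%). Within 50 bp of the summit it was higher at divergent regions in 1 replicate only (1.12%, 1.05% and 1.13%, against 1.29%, 0.886% and 1.20%). Divergent regions had less G and C, as given above. Their summits also lay nearer to a start site (median 72.0 bp, against 154 bp for single-gene summits), so the window reaches promoter DNA more often. The motif shares were not matched for either, and the part of base composition and of this distance in them was not tested.

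Among the members, a motif did not always go with a higher signal. Those with an M1BP match were optimal in 43.9%, those without in 54.0%, with median signals of 86.9 and 105. For DREF the shares were 50.9% with and 52.4% without, for BEAF-32 50.5% and 52.7%, and for the TATA box 57.5% and 51.1%. These shares depended on the window. Within 250 bp of the summit they were 50.6% and 53.0% for M1BP, and turned to 56.5% and 51% for DREF and 52.6% and 51.8% for BEAF-32. Motif content also differed between the nearest and the farthest class of distance between the start sites. DREF matched in 20.1% of members at 1 to 100 bp and in 5.44% at 500 to 1000 bp, BEAF-32 in 34.1% and 15.5%, and M1BP in 22.1% and 10.9%. The TATA box went the other way, with 10.1% and 21.8%, and the heat shock element changed little, with 5.87% and 6.28%. A match is a description of letters in the window and not evidence of binding by that factor.

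**Figure D5:**
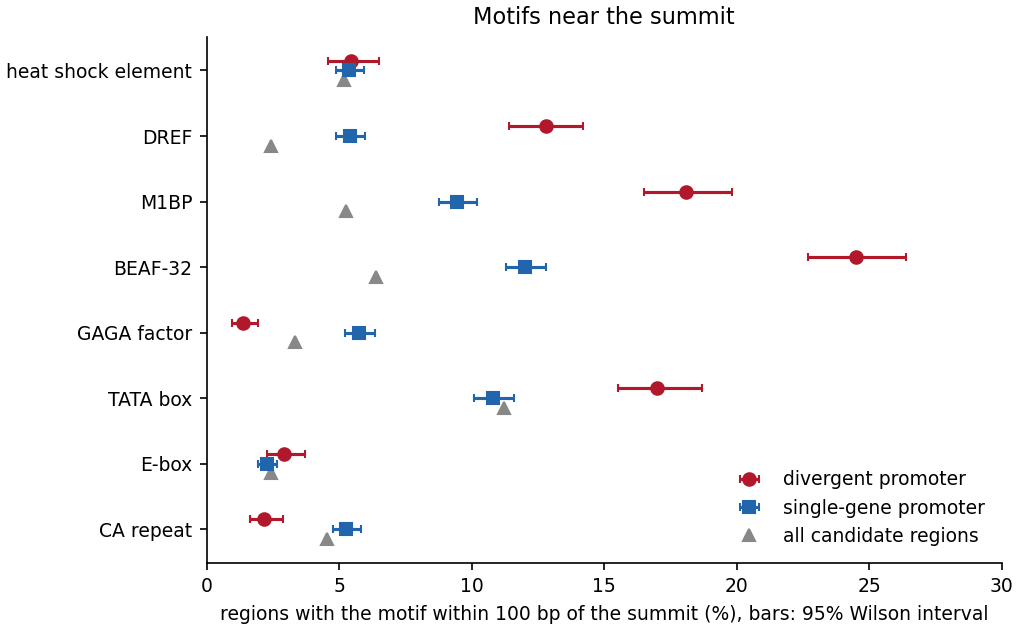
Percentage of regions with each motif within 100 bp of the summit (horizontal axis), for divergent regions (circles), single-gene regions (squares) and all candidates (triangles), with 95% Wilson intervals on divergent and single-gene values. The heat shock element stands at 5.46% and 5.38% in divergent and single-gene regions, BEAF-32 at 24.5% and 12.0%, and GAGA factor at 1.36% and 5.75%.

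The members were also read by gene family, on 16 lists that hold a small part of their genes. Over all 13945 coding genes, 5052 (36.2%) were in an annotated divergent pair, 3341 stood at a member and 2011 of these (60.2%) at an optimal one, which is the level to read the families against. Of the 8893 genes outside a pair, 14.3% had an optimal region within 500 bp of a start site. Of 73 mitochondrial ribosomal protein genes, 58 were in a divergent pair, 50 stood at a member and 37 of the 50 at an optimal one. Of the 15 not in a divergent pair, 1 had an optimal region within 500 bp. Of 86 cytosolic ribosomal protein genes, 53 were in a pair, 36 at a member and 32 of the 36 at an optimal one, but 25 of the 33 outside a pair had an optimal region too. RpS27 shared a region of signal 939.5 with the nucleoporin gene Nup37 (ranks 170, 137 and 49), and RpL7 one of 915 with Ripalpha (ranks 86, 211 and 84).

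Chaperone and vacuolar ATPase genes at members were at an optimal one in 81.2% and 81.8%, proteasome genes in 65.0%. Of 33 chaperone genes outside the heat shock list, 21 were in a pair and 16 at a member, 13 of them at an optimal one. The strongest was at Pfdn6, a prefoldin subunit gene, and Su(z)12, a Polycomb repressive complex gene (signal 403, ranks 1686, 383 and 539), followed by Hsc70-5, the mitochondrial Hsp70 gene, with CG8531 (384, ranks 939, 592 and 805). Of 48 proteasome genes, 26 were in a pair, 20 at a member and 13 at an optimal one, led by Rpn5 with the histone acetyltransferase gene Hat1 (519) and Rpn3 with l(2)37Bb (461). Of 33 vacuolar ATPase genes, 14 were in a pair, 11 at a member and 9 at an optimal one, led by Vha100-2 with Vti1b (643), a SNARE gene, and Vha16-5 with CG12299 (481).

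Of the genes at members, 51.4% of those for oxidative phosphorylation and 70.0% of those for tRNA charging were at an optimal one. Of 90 oxidative phosphorylation genes, 45 were in a pair, 35 at a member and 18 at an optimal one, led by ND-MWFE with the peptidase gene TppII (692) and ND-ASHI with the fumarase gene Fum1 (584). Of 33 aminoacyl-tRNA synthetase genes, 23 were in a pair, 20 at a member and 14 at an optimal one. SerRS and CG17260, whose start sites lie 8 bp apart, shared a region of 768 (ranks 286, 103 and 159), and IleRS and the WAVE complex gene Hem one of 528.

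Genes of nuclear functions at members were at an optimal one in 42.9% to 60%, by list. Of 40 genes of TFIID and Mediator, 31 were in a pair, 25 at a member and 13 at an optimal one, led by MED27 with elm (706) and MED30 with the translesion polymerase gene Rev1 (699). Taf10b and Taf10, 2 TFIID subunit genes with start sites 45 bp apart, faced each other at a region of 57.9 that was not optimal (ranks 7923, 10196 and 27305). Of 21 nucleoporin genes, 18 were in a pair and 14 at a member, but 6 at an optimal one, such as Nup98-96 with mbc (559.9). Of 21 replication genes, 15 were in a pair, 10 at a member and 6 at an optimal one, with Mcm2 and RPA1 at 252 and Mcm5 and Art1 at 233. Of 16 genes listed for the exosome and ribosome biogenesis, 14 were in a pair, 12 at a member and 7 at an optimal one. The strongest of these was at Rrp1 with gammaTub23C (418), but Rrp1 entered by its symbol and is a DNA repair endonuclease gene. The next was at Fib, the fibrillarin gene, with CG3085 (286).

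Histone genes gave other counts. Of 115, 87 were in a divergent pair, nearly all in the repeated cluster, and 3 stood at a member. The repeat copies are nearly identical, and how reads in them were handled is not given in the sources used here, so their lack of candidate regions is uncertain. The 2 optimal members were at single-copy genes: His2Av, the H2A variant gene, with the histone kinase gene ball (453, ranks 598, 455 and 456), and His4r with the activin receptor gene put. The region of put and His4r had a signal of 102, but ranks of 2671, 9659 and 21879, and was among the 5756 strongest regions of replicate 1 only. It held a heat shock element, an M1BP match and the BEAF-32 motif.

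Genes of restricted expression were scarce among the members. None of 27 segmentation and Hox genes was in a divergent pair. Of 93 cuticle protein genes 11 were in a pair and 1 at a member, Lcp9 with CG3594, which had a signal of 25.8 and no counterpart in replicates 2 and 3. Of 119 chemoreceptor genes 16 were in a pair and 2 at a member. Gr63a, a carbon dioxide receptor gene, faced Lamtor4, a gene of the lysosomal Ragulator complex, at an optimal region of 99.7 that had no counterpart in replicate 2. Gr61a and JMJD5 shared a region of 38.4 that was not optimal.

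Few heat shock inducible genes stood at a member. Of the 17 matched, 6 were in a divergent pair (35.3%, against 36.2% of all coding genes) and 2 stood at a member (11.8%, against 24.0%), which was 1 and the same region. It lay between Hsp67Bc, a small heat shock protein gene, and CG4456 (chr3L:9372304-9372719, intergenic), whose start sites are 225 bp apart, with Hsp22 on the plus strand also within the window. Its signal was 31.8, with values of 15.9 and 12.1 in replicates 1 and 3 and no overlapping region in replicate 2. It ranked 21200 in the pooled list and was not optimal. Hsp83 with CG14965, DnaJ-1 with Usp47 and Hsp68 with SMC1 are annotated pairs with start sites 478, 784 and 977 bp apart, and no candidate summit lay within 500 bp of both start sites of any of these. Of the 11 heat shock genes outside a divergent pair, 3 had an optimal region within 500 bp of a start site (27.3%, against 14.3% of all coding genes outside a pair). That share rests on 3 genes and is not read as a difference. The 11 include the Hsp70 gene copies, and how reads in repeated copies were handled is not given in the sources used here. A lack of regions at such copies is therefore uncertain.

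The same comparison was turned round, from the annotation to the regions. Of 2667 annotated divergent pairs, 1804 (67.6%) had a candidate summit within 500 bp of both start sites and 1084 an optimal one (40.6%, 38.8 to 42.5). The replicates gave 38.5%, 39.6% and 41.1% (39.7 ± 1.32, SD, n = 3). The share was 43.4% of pairs at 1 to 100 bp, 58.9% at 200 to 300 bp and 13.2% at 500 to 1000 bp, where few summits can meet the window of both. By gene, 46.3% of the 5052 genes in a divergent pair had an optimal summit within 500 bp of a start site (44.9 to 47.7), against 14.3% of the 8893 other coding genes (13.6 to 15) and 25.9% of all. Replicates gave 44.2%, 45.2% and 47.1%, against 15.2%, 13.4% and 14.6%, so the groups did not overlap. A region between the genes of a pair counts for both of them here.

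Along the chromosomes, X stood lower. On X 38.4% of 344 members were optimal (33.4 to 43.6), against 54.6% on 2L, 49.5% on 2R, 56.1% on 3L and 58.5% on 3R (54.3 to 62.5). Replicate 1 had 31.3% on X, against 44.6 to 50.6% on those arms, replicate 2 51.2% against 57.7 to 66.2%, and replicate 3 45.2% against 54.9 to 64.2%, so X was the lowest of these arms each time. Single-gene regions on X were optimal in 25.9%, against 24.9 to 26.3% on the same arms. All candidates on X were optimal in 20.4%, against 18.2 to 19.8% there. The mean GC content around members was 38.2% on X, against 36.1 to 37.4% on the same arms, and its part in the difference was not tested. Chromosome 4 held 9 members, 3 of them optimal.

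IDR selects for ranks that repeat across these replicates, so agreement of optimal regions between them is set in part by that selection. Of the 1109 optimal members, 846 (76.3%) overlapped a region among the 5756 strongest of all 3 replicates. The share was 69.5% for the optimal single-gene regions and 67.9% for all optimal regions. Taken singly, replicates 1, 2 and 3 recovered 88.1%, 89.3% and 92.5% of the optimal members. Spearman's rank correlation of signal was taken over regions with an overlapping region in both replicates. Across divergent regions it was 0.812 between replicates 1 and 2 (1846 regions), 0.838 between 1 and 3 and 0.853 between 2 and 3. For single-gene regions it was 0.768, 0.745 and 0.799. Regions are not independent replicates, divergent regions are on average stronger, and these values are a description.

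At the edge of the rule, the farther start site lay exactly 500 bp from the summit at CG31650/CG33995 (signal 79.7, not optimal) and CG15097/CG15082 (163, optimal). It lay 501 bp away, just outside, at fipi/CG3294 (27.6, not optimal) and Nbr/Noc2 (152, optimal).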

How the data were processed

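Chromatin immunoprecipitation of Hsf-GFP was measured by sequencing in 3 biological replicates of 1 group. The authors deposited dm6 lists of regions in narrowPeak format, per replicate and pooled, with at most 30000 regions a list, and an optimal list of 5756 regions that passed IDR. Signal in the deposited lists is the authors' peak score, scaled differently from list to list, and served only to rank and describe regions of the same list. The deposited −log10 q value reached a ceiling of 4.12 and was not used. Aligner and peak caller: not given in the sources used here, nor is the use made of the control experiment that the labels name. Read depth is unknown, so no precision per region can be given. The dm3 lists were not used here.

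Summits were assigned to start sites of protein-coding transcripts of Ensembl release 115 (annotation 6.54, 13945 genes, 6 chromosome arms), and 2 regions off these arms in replicate 2 were left out. Where several pairs qualified, the pair with the smallest sum of distances to the summit was taken. A pooled region was called optimal when its position and summit matched an optimal one, and a replicate region when among the 5756 strongest. Regions of different lists were matched at 1 bp of overlap. Shares have 95% Wilson intervals, which cover counting error only, and the 3 replicates were compared by the exact sign-flip permutation test. The genes named were those of the 20 strongest members, every heat shock member, the 2 strongest members of each other list, pairs with both genes in 1 list, and the extremes of distance; the region with a heat shock element among the printed sequences was chosen likewise by rule. The members, the 16 gene lists, the 8 motifs and the rules were chosen with earlier results of these data known, and 3 alternatives were added after seeing the data. Of the listed symbols, 8 did not match the annotation (Hsp67Bb, Hop, Pfdn3, CDC45L, Mcm4, Mcm8, Mcm9 and h). The rule was tested on simulated annotations. Python 3.11.15 with numpy 2.4.6, pandas 2.3.3, scipy 1.17.1 and matplotlib 3.10.9 was used.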

Additional observations from a re-analysis of the deposited data

How the results depend on the processing

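Of 61 alternative values, 30 moved by more than 1 SD over replicates, 30 moved by less and 1 changed sign. The difference of 26.4 points in the optimal share between divergent and single-gene regions kept its direction in all alternatives run. It was 17.6 points with the optimal list limited to its stronger part above the median signal and 14.5 with regions among the strongest of all 3 replicates at 50% overlap, where fewer regions are called. It was 20 within GC classes, 19.4 within joint classes of GC content and distance, and 18.0 against single-gene regions with a divergent noncoding start site, the last 2 being added after seeing the data. The optimal list itself was not remade without a replicate. Its regions were instead required to overlap a region among the 5756 strongest of 2 replicates. This gave differences of 22.2 to 24.0 points over the 3 choices of 2 replicates. The median signal ratio was 1.59 in replicate 1. The share of annotated pairs with an optimal region, 40.6%, was 27.6% with a window of 250 bp. It was 32.2 to 33.8% where the optimal region also had to recur in 2 replicates in this way. Motif differences (divergent minus single-gene, in points) followed the window. With 50 bp and 250 bp on each side they were 4.62 and 13.4 for DREF, 4.50 and 17.9 for M1BP, 6.22 and 20.3 for BEAF-32, -2.02 and -10.6 for GAGA factor, 1.65 and 8.27 for the TATA box, and -1.32 and -6.51 for CA repeats; at 250 bp the E-box gave 1.52 and the heat shock element 0.933. With 1 region a pair or gene they were 6.34 for DREF, 7.12 for M1BP, 11.4 for BEAF-32, -3.27 for GAGA factor, 5.58 for the TATA box and -2.17 for CA repeats, and the heat shock element reversed to -0.202 from 0.0793, both within the spread between replicates; the cause was not tested. The samples form 1 group, so no sample could be paired with one of another group. The classes of regions were compared within each replicate, and the sign-flip test used these differences within replicates. The unknown read depth limits every statement on weak regions.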
